A study of Mus musculus with 18 samples.

Results

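EA1 is a murine lung cancer cell line driven by an Eml4-Alk fusion, the gene fusion of a subset of human lung adenocarcinomas, with wild-type Trp53. Its RNA was compared between cells recovered from orthotopic lung tumors and cells kept in culture, in 10 of the 18 RNA-seq libraries of the series, 5 in vivo and 5 in vitro, chosen by their labels alone. For the in vivo libraries the left lung received 200000 EA1 cells in Matrigel. The hosts were male GFP-transgenic C57BL/6 mice aged 8 to 12 weeks, whose own cells express GFP. After 4 weeks the tumor-bearing lungs were dissociated and live GFP-negative cells were sorted, and each library pooled 3 to 5 mice. The in vitro cells were grown in RPMI-1640 with 10% fetal bovine serum. The other 8 libraries are of EA2, a second Eml4-Alk line that lacks p53 and was injected at 500000 cells into the same host strain for 4 weeks (5 in vivo, 3 in vitro). They enter only where a change in EA1 is set against the change in EA2. Each is 1 cell line, and the labels do not say that the 5 in vitro libraries are separate cultures, so p-values measure the spread between libraries only. All levels are FPKM (sequenced fragments adjusted for the length of the transcript and for how many the library mapped), and differences are on the log2(FPKM + 1) scale, which understates the change of genes with low levels. The deposited values hold no read counts, so depth and counting error per library are unknown. The EA1 values end at a floor of 0.01.

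Cells in culture meet rich medium and divide, whereas in the lung they share the tissue with fibroblasts, alveolar and airway epithelium, endothelium and leukocytes. Complement and interferon genes are left out here, and the account concerns the remaining programs. Mucosal epithelia secrete lectins, trefoil peptides, mucins and protease inhibitors when injured or inflamed, and ATF4 is the transcription factor that raises amino acid transport and synthesis when amino acids run short or the endoplasmic reticulum is stressed.

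Genes that bear on the label of the line are given first. Levels per gene of the fusion partners cannot show the fusion transcript itself. Alk, the kinase gene of the fusion, was at 7.01, 8.87, 10.0, 9.45 and 8.79 FPKM in vitro in libraries 1 to 5 and at 14.3, 16.2, 16.4, 9.61 and 14.5 FPKM in vivo. Eml4, its partner, was at 6.55 to 10.2 in vitro and 8.78 to 13 in vivo. Keratins 8 and 18 were high in all 10 libraries, with Krt8 at 1404 to 1635 FPKM in vitro and 493 to 1078 in vivo. Nkx2-1, the lineage factor of lung epithelium, was listed at the table's floor of 0.01 FPKM in all 5 in vitro libraries and was at 0.0781 to 0.724 FPKM in vivo, too low to be tested. Epcam, an epithelial adhesion molecule, was at 1.52 to 2.27 FPKM in culture and at 35.5 to 150.4 in vivo, so this epithelial marker was low in the cultured line.

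Some libraries stood apart before any comparison was made. Markers of host lung cells were higher in vivo, and whether they came from host cells that passed the sort or from EA1 cells was not tested. Col3a1, a fibrillar collagen of fibroblasts, was at 331, 267, 67.6, 1001 and 303 FPKM in in vivo libraries 1 to 5 and at 0.809 to 1.46 in vitro. Scgb1a1, the secretoglobin of airway club cells, was at 296, 286, 887, 239 and 232 FPKM in vivo and at 0.242 to 0.904 in vitro. In vivo library 4 therefore held the most Col3a1, and library 3 the most Scgb1a1 and the least Col3a1. Over all genes, library 4 had the highest in vivo value for 40.4% and the lowest for 34.0%, and library 3 the highest for 16.9% and the lowest for 26.3%. The summed FPKM of 23 fibroblast markers was 2526, 2206, 1250, 5984 and 2311 in vivo against 985 to 1200 in vitro, and 8 of the 16 tested were at 1 FPKM or more in culture. The 9 club and goblet cell markers other than Scgb1a1 summed to 68.1, 70.2, 138.5, 42.9 and 52 FPKM in vivo and to at most 1.51 in vitro. Macrophage markers (20 in the table) summed to 147 to 320 FPKM in vivo and 48.4 to 57.5 in vitro, while Ptprc, the pan-leukocyte gene, stayed at 0.381 to 0.712 in vivo. The 18 T, B and NK cell markers summed to at most 6.11 FPKM in vivo and 0.31 in vitro. In bulk RNA, more cells of a type and more RNA per cell of that type cannot be told apart. In vitro library 1 had the lowest in vitro value for 34.8% of genes.

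Of 11212 genes with at least 1 FPKM in 5 or more EA1 libraries, 3459 (30.9%) were higher and 4560 (40.7%) lower in vivo at an adjusted p under 0.05 by limma, with a median difference of -0.09. Higher genes were 43.1% of the calls. After median-of-ratios scaling, which moved the median of all genes up by 0.14, 4326 were higher and 3616 lower, so that higher genes were 54.5% of the calls. A gene below 1 FPKM in culture could pass the filter only through its in vivo level. There were 780 such genes and 748 of them were higher, so for lists with more than 4 such members those at 1 FPKM or more in vitro are also counted. Among all 10432 genes at that level 26.0% were higher and 43.7% lower. With no filter 5618 genes were higher and 4868 lower. Their share of the genes tested is not given, so list counts with no filter stand without a share to compare.

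**Figure D1:**
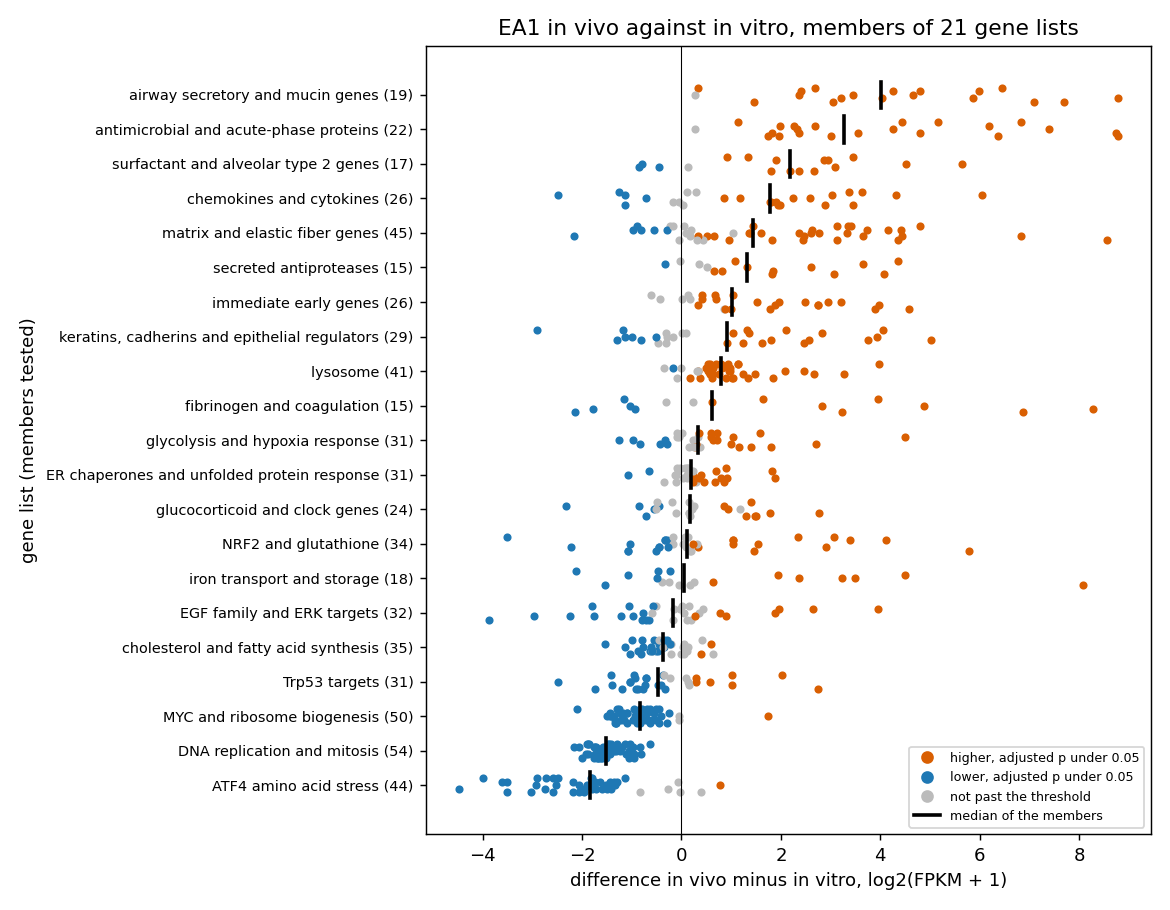
Each point is a tested member of 1 of 21 gene lists, placed by its difference between EA1 in vivo and in vitro on the log2(FPKM + 1) scale, with calls in color and the list median as a bar. Medians run from -1.84 for the ATF4 list to 4.02 for the airway secretory list, beside -0.09 over all genes.

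The steepest fall was in genes of the ATF4 amino acid response. Of 47 listed genes 46 were in the table and 44 were tested, all at 1 FPKM or more in vitro. Of these 38 fell, 1 rose (Cbs, cystathionine beta-synthase, 0.77) and 5 did not pass the test, with a median of -1.84. Cth, which releases cysteine from cystathionine, was at 11.5, 51.9, 81.8, 53.0 and 43.1 FPKM in vitro in libraries 1 to 5 and at 0.995, 0.871, 0.953, 0.627 and 1.01 in vivo (difference -4.48 ± 0.41 SE, adjusted p = 2.53e-06). The groups did not overlap, and in vitro library 1 lay well below the other 4. Chac1, which breaks down glutathione, was at 19.2, 66.4, 54.0, 58.4 and 69.1 in vitro and 2.51, 2.34, 2.26, 1.88 and 1.81 in vivo (-3.99 ± 0.30 SE, adjusted p = 6.19e-07). Mthfd2, the mitochondrial folate enzyme, was at 67.0, 167, 172, 162 and 144 in vitro and 9.83, 13.2, 9.86, 8.49 and 9.61 in vivo (-3.62 ± 0.24 SE, adjusted p = 2.63e-07). For both, every in vivo library was below every in vitro library. Slc7a11, the cystine importer, was at 5.96, 20.9, 25.0, 22.2 and 20.3 in vitro and 0.436, 0.599, 0.809, 0.583 and 0.564 in vivo (-3.51 ± 0.31 SE, adjusted p = 2.09e-06). Trib3, a pseudokinase that dampens the response, was at 18.2, 122, 158, 116 and 119.8 in vitro and 6.95, 7.28, 8.14, 5.65 and 6.14 in vivo (-3.5 ± 0.49 SE, adjusted p = 6.63e-05). Asns, asparagine synthetase, was at 102, 239.7, 306, 248 and 242 in vitro and 27.3, 29.3, 29.4, 18.4 and 25.0 in vivo (-3.02 ± 0.26 SE, adjusted p = 1.80e-06). Again library 1 was the lowest in culture for all 3 genes and no library crossed between the groups. Atf4 itself fell from 287–552 FPKM over the 5 in vitro libraries to 112–123 over the 5 in vivo libraries (-1.97 ± 0.16 SE, adjusted p = 1.02e-06).

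Serine synthesis fell with it. Phgdh, its first enzyme, went from 264–443 to 54.0–72.0 FPKM (-2.58, adjusted p = 5.27e-08) and Psat1 from 216–362 to 40.5–59.6 (-2.58, adjusted p = 1.38e-07). Slc7a5, which carries large neutral amino acids, went from 178–485 to 45.4–59.8 (-2.73, adjusted p = 1.45e-06). Ddit3, the CHOP transcription factor, also fell (-1.90, adjusted p = 0.00177), but its groups overlapped through in vitro library 1, at 12.7 FPKM beside 8.78 to 13.7 in vivo. The 5 members that did not pass were Nupr1 (0.39), Ddit4 (-0.28), Stc2 (-0.08), Ppp1r15a (-0.83) and Wars (-0.04).

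In vitro library 1 held the lowest in vitro value for 43 of the 44 members, beside 34.8% of all genes. Without that library 40 members fell and 1 rose. Rps6ka2, a kinase downstream of ERK that is in no list, was among the 10 largest falls, from 12–20.6 to 0.670–1.46 FPKM (-3.13 ± 0.16 SE, adjusted p = 5.16e-08). So was Snora70, a short nucleolar RNA for which FPKM is unstable, at 50.9, 22.5, 39, 45.3 and 42.3 in vitro and 0.01, 0.01, 0.01, 0.01 and 11.2 in vivo. In vivo library 4 held the lowest in vivo value for 26 of the 44 members, beside 34.0% of all genes, with a median 0.20 below that of the other 4 libraries on the log2(FPKM + 1) scale.

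**Figure D2:**
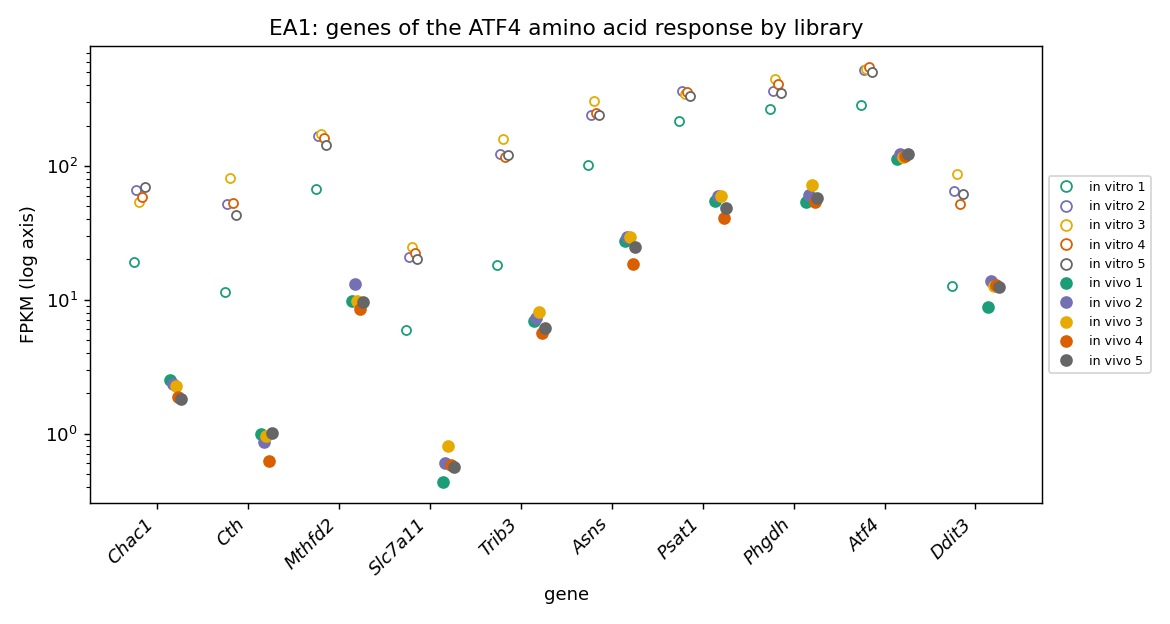
FPKM on a log axis of 10 genes of the ATF4 list in the 5 EA1 in vitro libraries (open circles) and the 5 EA1 in vivo libraries (filled circles). In vitro library 1 lies below the other in vitro libraries for each gene, and the in vivo libraries lie lower still except for Ddit3, where in vitro library 1 is within their range.

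ATF4 binds with C/EBP partners at a composite element, searched here as TGATGNAAN on both strands in the 250 bases before the RefSeq start of each gene (assembly GRCm38.p6). The element was found in 10 of the 36 tested list members with a promoter sequence (27.8%), in 191 of 8570 tested genes (2.23%), and in 2.02% of the genes that were lower in vivo. No other motif was searched, and a match is a description of the letters only. The stretches around the match are shown for 6 members that fell, because each of them fell in vivo and holds the element. Each is read 5′ to 3′ in the direction of the gene with the element in capitals.
Chac1 (chr2:119351018-119351087, plus strand): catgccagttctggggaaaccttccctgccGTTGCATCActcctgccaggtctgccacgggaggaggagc
Slc7a11 (chr3:50443623-50443709, minus strand): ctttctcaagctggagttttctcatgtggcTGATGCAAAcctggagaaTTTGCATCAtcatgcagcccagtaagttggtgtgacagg
Asns (chr6:7693210-7693262, minus strand): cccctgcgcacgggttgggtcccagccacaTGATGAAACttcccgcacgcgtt
Pck2 (chr14:55540132-55540201, plus strand): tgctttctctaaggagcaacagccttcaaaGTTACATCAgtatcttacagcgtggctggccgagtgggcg
Aars (chr8:111033699-111033768, plus strand): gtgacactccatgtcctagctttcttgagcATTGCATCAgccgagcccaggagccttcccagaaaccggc
Pycr1 (chr11:120643812-120643881, minus strand): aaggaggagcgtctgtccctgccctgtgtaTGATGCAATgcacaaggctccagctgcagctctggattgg
The element begins 194 bases before the start in Chac1 and 23 bases before it in Asns, and Slc7a11 carries it at 66 and again at 48 bases, once on each strand. Pck2, mitochondrial phosphoenolpyruvate carboxykinase, was 5.08-fold lower in mean FPKM (difference -2.19, adjusted p = 4.23e-05). Aars, the alanyl-tRNA synthetase, had a difference of -1.96 (adjusted p = 6.78e-07), and Pycr1, of proline synthesis, one of -1.72 (adjusted p = 8.16e-06). Of the 31 members that fell and had a promoter sequence, 9 held the element, and so did Nupr1, which did not pass the test.

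Growth genes were lower as a block. All 54 genes of DNA replication and mitosis fell, with a median of -1.53. Mybl2, a transcription factor of the cell cycle, was at 20.1, 20.2, 15.8, 19.2 and 19.5 FPKM in vitro and 3.92, 3.16, 2.80, 4.49 and 2.95 in vivo (-2.17 ± 0.11 SE, adjusted p = 5.57e-08). Top2a, the topoisomerase of dividing cells, was at 109.8, 113, 92.5, 109 and 105 in vitro and 29.7, 27.7, 24.4, 19.1 and 22.9 in vivo (-2.06 ± 0.11 SE, adjusted p = 6.03e-08). Mki67, the proliferation marker, was at 28.0 to 41.5 in vitro and 7.30 to 10.4 in vivo (-1.88, adjusted p = 1.82e-07). No in vivo library reached the lowest in vitro library for any of these 3 genes. The motor protein gene Cenpe (-2.01), the replication factor Mcm10 (-1.92) and the mitotic kinase Aurka (-1.90) fell by similar amounts. Of 52 listed genes of MYC and ribosome biogenesis 50 were tested, 47 fell and 1 rose, with a median of -0.84. Myc itself was at 96.6, 109.5, 137, 137 and 120.2 in vitro and 41.1, 55.3, 51.1, 42.2 and 48.8 in vivo (-1.31 ± 0.11 SE, adjusted p = 1.90e-06). Nop56, of the small nucleolar ribonucleoprotein core, was at 104, 151, 191, 136 and 132 in vitro and 33.4, 35.2, 35.0, 24.6 and 33.3 in vivo (-2.09 ± 0.15 SE, adjusted p = 4.92e-07). Wdr43 (-1.5), Dkc1 (-1.44) and the helicase Ddx21 (-1.43), all of ribosome assembly, followed. The riser was Mxd4, a repressor that competes with MYC for MAX, at 5.56 to 10.1 in vitro and 24.4 to 40.9 in vivo (1.74 ± 0.16 SE, adjusted p = 3.09e-06). Max (-0.06) and Polr1c (-0.05) did not pass.

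The p53 of this line is wild-type, and the list of Trp53 targets split. Of 31 tested targets (32 listed) 7 rose and 19 fell, with a median of -0.48. Mdm2, the ubiquitin ligase that p53 induces, was at 38.3, 40.7, 36.9, 36.7 and 34.7 FPKM in vitro and 17.3, 18.9, 16.4, 19.2 and 17.5 in vivo (-1.03 ± 0.06 SE, adjusted p = 1.38e-07). Cdkn1a, the p21 inhibitor of the cell cycle, was at 72.8, 86.5, 78.2, 66.7 and 74.1 in vitro and 66.9, 57.9, 55.6, 47.3 and 44.0 in vivo (-0.48 ± 0.11 SE, adjusted p = 0.00241). The Mdm2 groups were apart, while those of Cdkn1a overlapped. Btg2, an antiproliferative target that is also an immediate early gene, rose from 8.35–15.4 to 55.6–127 (2.75 ± 0.21 SE, adjusted p = 7.03e-07). Gdf15, which ATF4 induces too, fell from 85.1–176 to 12–35.5 (-2.48, adjusted p = 2.01e-05). Fas, a death receptor, rose from 0.221–0.524 to 3.35–6.10 (2.03), while Sesn2, a stress sensor, fell from 11.5–31.4 to 6.11–7.22 (-1.75) and Plk2, a kinase, by 2.82-fold (-1.41).

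Among 32 tested genes of the EGF family and of ERK output (36 listed), 7 rose and 13 fell, with a median of -0.16. Over all genes 30.9% were higher and 40.7% lower, so the list as a whole did not fall more often than other genes. Of 6 tested ligands Areg, Ereg, Hbegf and Btc fell (Btc, betacellulin, -1.06, adjusted p = 0.008), while Tgfa (-0.15, adjusted p = 0.566) and Nrg1 (0.20, adjusted p = 0.434) did not pass. Areg, amphiregulin, was at 141, 281, 542, 319 and 312 FPKM in vitro and 15.8, 17.4, 20.3, 17.2 and 26.5 in vivo (-3.87 ± 0.29 SE, adjusted p = 6.80e-07), with the groups apart. Rnd1, a small GTPase, was at 9.89 to 15.0 in vitro and 0.624 to 1.14 in vivo (-2.96, adjusted p = 1.58e-08). Ereg, epiregulin, went from 21.1–87.5 to 6.22–14.3 (-2.25, adjusted p = 9.97e-05) and Hbegf from 58.1–166 to 41.2–70.4 (-0.77, adjusted p = 0.0162), the Hbegf groups overlapping. The 3 receptors tested rose. Erbb3, which pairs with Erbb2, was at 0.499, 0.532, 0.727, 0.983 and 0.802 in vitro and 32.7, 41.3, 30.1, 8.95 and 27.5 in vivo (3.95 ± 0.32 SE, adjusted p = 1.25e-06). Egfr rose from 6.96–8.76 to 13.3–17.6 (0.89, adjusted p = 4.05e-06) and Erbb2 by 0.77 (adjusted p = 2.29e-04). ERK targets were mixed: Spry1, a feedback inhibitor, rose by 2.65 (adjusted p = 1.42e-06), Etv5 and Dusp4 had differences of -0.80 and -0.66 (adjusted p = 1.86e-04 and 5.59e-05), and Dusp6 did not pass (0.35, adjusted p = 0.0981). The median of this list moved to -0.02 after median-of-ratios scaling, with 12 higher and 13 lower.

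Among the 10 largest rises were Reg3g, Reg3b, Reg1, Tff2 and Scgb1a1, secreted products of mucosal epithelium. Reg3g, a lectin that kills bacteria, was at 4.17, 3.56, 1.38, 1.29 and 2.01 FPKM in in vitro libraries 1 to 5 and at 2663, 2503, 1514, 373 and 1638 in vivo (8.77 ± 0.49 SE, adjusted p = 8.97e-08). Reg3b, a related lectin, was at 16.5, 13.2, 8.40, 5.49 and 8.84 in vitro and 8207, 8184, 5802, 1040 and 5089 in vivo (8.73 ± 0.53 SE, adjusted p = 1.46e-07). Reg1, of the same family, was at 0.950, 1.08, 0.531, 0.509 and 0.530 in vitro and 465, 523, 335, 60.1 and 390.3 in vivo (7.40 ± 0.50 SE, adjusted p = 3.24e-07). In vivo library 4 was the lowest for all 3 and still above every in vitro library. Lbp, which binds bacterial lipopolysaccharide, was at 0.220 to 0.786 in vitro and 324, 186, 145, 60.8 and 181 in vivo (6.82 ± 0.35 SE, adjusted p = 5.28e-08). Pigr, which carries antibodies across epithelium, was at 0.0104 to 0.115 in vitro and 35.4, 42.7, 39.6, 7.09 and 38.8 in vivo (4.79 ± 0.40 SE, adjusted p = 1.52e-06). Ltf, lactoferrin, was at 0.01 to 0.101 in vitro and 34.6, 26.4, 24.6, 7.45 and 27.9 in vivo (4.45 ± 0.32 SE, adjusted p = 5.14e-07). Library 4 was the lowest for these as well, and each was highest in library 1 or 2. Lyz2, the lysozyme of macrophages and alveolar type 2 cells, was at 0.0766 to 0.253 in vitro and 69.1, 133, 73.1, 73.8 and 154 in vivo (6.37 ± 0.22 SE, adjusted p = 6.39e-09). It had a different order, with libraries 2 and 5 highest. The summed macrophage markers were highest there too (291 and 320 FPKM), but these sums include Lyz2 itself, so the orders are not independent. The part of macrophages was not tested. Of 31 antimicrobial and acute-phase genes 30 were in the table and 22 were tested. Of these 21 rose and Wfdc2 did not pass (0.26, adjusted p = 0.457), with a median of 3.28. Only 4 of the 22 were at 1 FPKM or more in vitro, of which 3 rose, and with no filter 26 of 29 rose and none fell.

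Airway secretory and mucin genes shared this pattern. The list shares Reg3g, Pigr, Hp, Bpifa1, Wfdc2 and the untested Bpifb1 with the preceding one. Of 29 listed genes 28 were in the table and 19 tested, of which 18 rose and Wfdc2 did not pass, with a median of 4.02. There were 3 members at 1 FPKM or more in vitro, and 2 of them rose. With no filter 25 of 28 rose. The trefoil peptides, which protect mucus layers, came up from near 0: Tff2 was at 0.0700 to 0.625 FPKM in vitro and 182, 488, 341, 28.4 and 154 in vivo (7.09 ± 0.62 SE, adjusted p = 1.86e-06). Tff1 was at 0.01 to 0.460 in vitro and 162, 213, 194, 25.1 and 101 in vivo (6.45 ± 0.49 SE, adjusted p = 7.52e-07). Tff3 was at 0.01 to 0.260 in vitro and 126, 117, 103, 10.5 and 68.5 in vivo (5.86 ± 0.56 SE, adjusted p = 3.99e-06). Library 4 was lowest for each of the 3, 7.08-fold (Tff1) to 10.4-fold (Tff3) below the median of the other 4 libraries. Gabrp, a GABA receptor subunit of secretory epithelia, was at 0.144 to 0.345 in vitro and 67.6, 153, 128, 22.6 and 101 in vivo (5.99 ± 0.42 SE, adjusted p = 4.19e-07). Scgb1a1, given above, is in this list and was highest in library 3.

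Fibrinogen, the clotting protein whose chains are made mainly by liver, was another such product. Fgb was at 2.2, 1.77, 0.819, 0.558 and 0.745 FPKM in vitro and 1814, 709.5, 679.8, 179 and 821 in vivo (8.29 ± 0.50 SE, adjusted p = 1.45e-07). Fga was at 0.102 to 0.487 in vitro and 474, 139, 126, 41.2 and 186 in vivo (6.87 ± 0.49 SE, adjusted p = 4.91e-07), and Fgg at 0.0160 to 0.0947 in vitro and 88.6, 27.9, 28.0, 8.14 and 41.7 in vivo (4.88 ± 0.46 SE, adjusted p = 3.65e-06). All 3 chains were highest in library 1 and lowest in library 4, and no in vivo value overlapped an in vitro value. F5, coagulation factor V, rose from 0.118–0.395 to 7.86–26.3 (3.95, adjusted p = 2.60e-07) and Plat, the tissue plasminogen activator, from 16.0–19.6 to 99.5–229 (3.22, adjusted p = 1.17e-07). The urokinase arm went the other way: Plau fell from 12.5–14.4 to 5.13–8.48 (-0.93, adjusted p = 1.22e-05), its receptor Plaur by 2.06-fold (adjusted p = 1.68e-04), and Thbd and Procr, of the anticoagulant protein C pathway, had differences of -2.15 and -1.78 (adjusted p = 2.37e-05 and 1.42e-06). Of 26 listed genes 15 were tested, with 8 higher, 5 lower and a median of 0.62. Among the 10 at 1 FPKM or more in vitro 3 rose and 5 fell, and with no filter 14 of 25 rose and 6 fell.

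Protease inhibitors and iron carriers rose in part. Of 27 listed antiproteases 26 were in the table and 15 tested, with 11 higher and 1 lower (Serpinb6a, -0.33) and a median of 1.33. Of the 9 at 1 FPKM or more in vitro 5 rose, and with no filter 20 of 25 rose. Itih2, a heavy chain that binds hyaluronan, was at 0.465 to 1.49 FPKM in vitro and 62.4, 35.4, 40.0, 18.3 and 35.4 in vivo (4.36 ± 0.27 SE, adjusted p = 1.78e-07). Serpina1b, an alpha-1-antitrypsin gene, was at 0.127 to 0.371 in vitro and 27.5, 31.7, 34.6, 4.16 and 19.6 in vivo (4.07 ± 0.45 SE, adjusted p = 1.14e-05), but it belongs to a family of near-identical copies among which reads can be split. Spint1, which inhibits membrane proteases of epithelium, was at 0.254 to 0.663 in vitro and 23.8, 25.2, 21.5, 5.23 and 18.7 in vivo (3.65, adjusted p = 3.30e-06). Serpinf1 and Serpinb1a rose by 3.07 and 2.60, Serpinf1 with library 4 highest and Serpinb1a with library 4 lowest. Of 24 iron genes 18 were tested, with 7 higher, 6 lower and a median of 0.06, beside 30.9% higher and 40.7% lower among all genes. The 6 that fell were Steap1 (-2.13), Steap2 (-1.55), Hmox1 (-1.07), Ftl1 (-0.50), Ireb2 (-0.48) and Slc11a2 (-0.23). Carriers and oxidases were among the risers. Trf, transferrin, was at 8.50, 7.05, 8.03, 6.17 and 4.89 in vitro and 2927, 2381, 3048, 771 and 2541 in vivo (8.08 ± 0.34 SE, adjusted p = 1.58e-08). Cp, the ferroxidase ceruloplasmin, was at 17.7, 14.4, 18.5, 12.9 and 15.7 in vitro and 407, 308, 316, 502 and 379.8 in vivo (4.50 ± 0.14 SE, adjusted p = 4.83e-09). Trf was lowest in library 4, whereas Cp was highest there. Steap4, a metalloreductase, rose from 0.184–0.529 to 8.16–19.8 (3.49), Tfr2, a second transferrin receptor, from 0.905–1.63 to 9.53–26.2 (3.22) and Lrp1, a scavenger receptor, from 2.83–3.85 to 8.56–75.8 (2.37), the last with library 4 highest. Slc40a1, the iron exporter ferroportin, rose from 4.14–6.18 to 9.50–36.1 (1.95, adjusted p = 1.81e-04), and Tfrc, the transferrin receptor, did not pass (-0.39, adjusted p = 0.0652).

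Several epithelial regulators rose, while keratins and the repressors of epithelial genes moved both ways. Of 40 listed genes 29 were tested, with 15 higher, 7 lower and a median of 0.92, which was 0.02 under quantile normalization with 12 higher and 8 lower. Among the 24 at 1 FPKM or more in vitro 10 rose and 7 fell, and with no filter 20 of 40 rose and 8 fell. Epcam was at 1.85, 1.63, 1.52, 2.27 and 2.19 FPKM in vitro and 94.0, 150.4, 126, 35.5 and 102 in vivo (5.01 ± 0.32 SE, adjusted p = 2.08e-07). Elf3, an epithelial transcription factor, was at 4.75, 4.82, 4.13, 5.39 and 5.88 in vitro and 97.6, 136, 91.3, 25.6 and 97.8 in vivo (3.74 ± 0.36 SE, adjusted p = 4.10e-06). Ehf, a related factor, was at 0.0211 to 0.0803 in vitro and 14.1, 28.1, 20.2, 5.19 and 17.0 in vivo (3.93 ± 0.33 SE, adjusted p = 1.46e-06), and Cldn4, a tight junction claudin, at 0.132 to 0.334 in vitro and 19.9, 23.5, 22.9, 8.21 and 26.6 in vivo (4.04 ± 0.25 SE, adjusted p = 1.98e-07). Each of these 4 was lowest in library 4 and above culture in all 5 libraries. Krt8 was at 1635, 1404, 1432, 1439 and 1523 in vitro and 895, 1049, 1078, 493 and 878 in vivo (-0.81 ± 0.18 SE, adjusted p = 0.00214), and Krt18 at 1271, 1222, 1396, 1440 and 1374 in vitro and 671, 758, 827, 484 and 675 in vivo (-0.99 ± 0.12 SE, adjusted p = 2.98e-05). Both keratins fell, again with library 4 lowest. Of the other 6 keratins tested Krt80 fell (-1.14), Krt14 (1.32, adjusted p = 0.00121), Krt17 (0.92, adjusted p = 0.0359) and Krt20 (1.80, adjusted p = 2.08e-04) rose, and Krt7 (-0.31) and Krt19 (0.08) did not pass. Cdh1, E-cadherin, was at 165, 209, 245, 189.9 and 214 in vitro and 168, 247, 257, 62.4 and 173 in vivo (-0.31 ± 0.33 SE, adjusted p = 0.412) and Vim did not pass either (-0.30, adjusted p = 0.0777). Snai2, which represses epithelial genes, was at 15.1, 52.5, 59.4, 40.7 and 52.1 in vitro and 3.21, 3.33, 1.90, 15.9 and 4.28 in vivo (-2.91 ± 0.48 SE, adjusted p = 2.43e-04). Its in vivo value in library 4 exceeded the in vitro value in library 1, so the Snai2 groups overlapped. Among the related repressors Twist2 fell (-1.30, adjusted p = 2.81e-05), Snai1 (1.03, adjusted p = 0.00271) and Twist1 (1.23, adjusted p = 8.06e-06) rose, and Zeb1 (-0.17) and Zeb2 (0.01) did not pass.

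Surfactant and alveolar type 2 genes were mostly below 1 FPKM in culture. Of 25 listed genes 17 were tested, with 13 higher and 3 lower (Lpcat1, Etv5 and Fabp5), and a median of 2.19. Among the 7 at 1 FPKM or more in vitro 3 rose and 3 fell, and with no filter 19 of 24 rose. Sftpc, surfactant protein C, was at 0.01 to 0.153 FPKM in vitro and 20.5, 39.7, 174, 73.2 and 35.9 in vivo (5.64 ± 0.45 SE, adjusted p = 1.02e-06). Sftpb was at 0.01 to 0.0478 in vitro and 5.56, 6.81, 18, 8.31 and 4.46 in vivo (3.08 ± 0.27 SE, adjusted p = 2.27e-06). Library 3, which held the most Scgb1a1, was highest for both and for 10 of the 17 members. Muc1, a membrane mucin, was at 5.16, 3.99, 2.93, 5.44 and 4.83 in vitro and 149, 195, 179, 34.8 and 153 in vivo (4.52 ± 0.41 SE, adjusted p = 2.52e-06), with library 4 lowest, unlike the surfactant proteins. Cd36, a fatty acid carrier, rose to 4.19–13.5 FPKM (2.95) with library 3 highest, and Dram1, a lysosomal membrane protein, to 12.5–19.9 (3.45).

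Matrix genes were highest in library 4, the library with the most Col3a1. Of 56 listed genes 45 were tested, with 29 higher, 6 lower and a median of 1.44. Of the 29 at 1 FPKM or more in vitro 13 rose and 6 fell, and with no filter 33 of 55 rose. Mgp, an inhibitor of calcification, was at 2.89, 2.36, 3.10, 3.25 and 3.07 FPKM in vitro and 1950, 1097, 712, 3466 and 1338 in vivo (8.56 ± 0.34 SE, adjusted p = 1.13e-08). Eln, elastin, was at 0.147 to 0.253 in vitro and 63.6, 187, 123, 243 and 124 in vivo (6.84 ± 0.29 SE, adjusted p = 1.58e-08). Postn, periostin, was at 0.0432 to 0.178 in vitro and 23, 66.7, 3.53, 177 and 21.1 in vivo (4.8 ± 0.77 SE, adjusted p = 1.89e-04). Library 4 was highest for all 3, and for Postn it stood 50.2-fold above library 3. Col8a1, a short-chain collagen, was at 11 to 93.7 in vivo (4.44) and Thbs2, a thrombospondin, at 5.13 to 74.3 (4.42), also with library 4 highest and library 3 lowest. Fn1, fibronectin, which the cultured line already made at 533 to 852 FPKM, was at 1761, 1487, 1540, 2398 and 1784 in vivo (1.37 ± 0.16 SE, adjusted p = 1.49e-05). Lamb3 and Col4a1, of basement membrane, had differences of -2.16 and -0.82 (adjusted p = 3.32e-07 and 8.40e-05).

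Chemokines and cytokines were higher in 16 and lower in 5 of 26 tested genes (46 listed), with a median of 1.79. Of the 16 at 1 FPKM or more in vitro 6 rose and 5 fell, and with no filter 31 of 46 rose. Cxcl17, a mucosal chemokine, was at 0.125 to 0.480 FPKM in vitro and 98.5, 152, 120.2, 21.7 and 88.8 in vivo (6.05 ± 0.43 SE, adjusted p = 4.19e-07). Il33, an alarmin stored in the nucleus, was at 10.6, 10.9, 9.81, 6.68 and 9.36 in vitro and 153, 109, 104, 149 and 132 in vivo (3.63 ± 0.14 SE, adjusted p = 1.13e-08). Cxcl1, which attracts neutrophils, was at 2.49, 3.17, 2.94, 4.16 and 3.25 in vitro and 26.4, 42.1, 31.0, 43.2 and 114 in vivo (3.44 ± 0.32 SE, adjusted p = 3.35e-06). Cxcl17 was lowest in library 4, Il33 was nearly level across the in vivo libraries, and Cxcl1 was highest in library 5. Cxcl5, another neutrophil attractant, rose to 11.3–49.4 (4.31, adjusted p = 1.21e-06), and Ccl6 to 6.96–25.7 (3.37, adjusted p = 1.70e-06).

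Immediate early genes, which respond within minutes to growth factors and to tissue handling, were higher in 20 and lower in none of 26 tested (27 listed), with a median of 1.02. Fos was at 4.51, 9.24, 26.2, 21.2 and 15.7 FPKM in vitro and 306, 527, 229, 363 and 337 in vivo (4.59 ± 0.40 SE, adjusted p = 1.82e-06). Zfp36, which destabilizes cytokine mRNA, was at 16.4, 17.5, 24.2, 30.3 and 22.2 in vitro and 325, 536, 207, 259.7 and 438 in vivo (3.89 ± 0.25 SE, adjusted p = 2.57e-07). Library 2 was highest and library 3 lowest for both, and the groups were apart. Fosb and Jun, partners in AP-1, rose by 3.97 and 2.95, and Socs3, a feedback inhibitor of cytokine signals, by 3.22. The part of tissue dissociation and sorting, which only the in vivo cells went through, cannot be told apart from the tumor. In vitro library 1 was the lowest in culture for 21 of the 26, and without it 17 rose. Without in vivo library 4, 20 rose and 2 fell. Junb, of the same family, did not pass (0.17, adjusted p = 0.477).

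Genes of the glucocorticoid response and the clock were higher in 8 and lower in 5 of 24 tested (29 listed), with a median of 0.17. Over all genes 30.9% were higher and 40.7% lower. Mt2, a metallothionein, was at 165, 135, 133, 109 and 158 FPKM in vitro and 1317, 712, 709, 1563 and 717 in vivo (2.76 ± 0.24 SE, adjusted p = 1.72e-06), and its close copy Mt1 rose by 1.5. Ciart, a repressor of the clock, fell from 3.95–15.0 to 0.844–2.62 (-2.33, adjusted p = 4.87e-05). Fkbp5, a chaperone that glucocorticoids induce, was at 17.0, 16.4, 17.8, 18.7 and 15.0 in vitro and 144, 41.8, 33.3, 81.3 and 48.5 in vivo (1.77 ± 0.33 SE, adjusted p = 5.48e-04). Tsc22d3, the glucocorticoid-induced leucine zipper gene, was at 13.7, 31.1, 31.0, 27.1 and 32.0 in vitro and 74.4, 37.1, 25.8, 249 and 42.0 in vivo (1.18 ± 0.52 SE, adjusted p = 0.0641) and did not pass. Per1, a clock gene that glucocorticoids also induce, was at 2.96, 3.22, 4.17, 4.50 and 4.00 in vitro and 14.9, 10.1, 4.8, 35.9 and 9.91 in vivo (1.48 ± 0.39 SE, adjusted p = 0.00516). Library 4 was highest for Tsc22d3, Per1 and Mt2, and library 1 for Fkbp5. Sgk1, a kinase of the same response, was at 39.2, 34.7, 46.4, 51.7 and 43.5 in vitro and 44.7, 33.6, 25.7, 229 and 39.5 in vivo (difference 0.26, adjusted p = 0.643). Without library 4 the Sgk1 difference was -0.27 (adjusted p = 0.13), and the number of list members that fell went from 5 to 8.

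Metabolic lists had medians nearer to 0. Cholesterol and fatty acid synthesis fell in 19 and rose in 2 of 35 genes (Ebp and Acss2), with a median of -0.37, and 12 fell after median-of-ratios scaling. Scd2, a fatty acid desaturase, was at 686, 591, 429, 589 and 675 FPKM in vitro and 156, 209.8, 211, 251 and 192 in vivo (-1.53 ± 0.15 SE, adjusted p = 3.60e-06). Scd1 (-1.14), Acaca (-1.03) and Fads1 (-0.87) fell less, while Hmgcs1, of cholesterol synthesis, did not pass (-0.02, adjusted p = 0.95). Glycolysis and the hypoxia response rose in 16 and fell in 6 of 31 genes, with a median of 0.33. Car9, a carbonic anhydrase that hypoxia induces, was at 0.210 to 0.307 in vitro and 25.9, 16.2, 19.6, 72.3 and 24 in vivo (4.49 ± 0.32 SE, adjusted p = 4.53e-07), with library 4 highest. Egln3, an oxygen-sensing hydroxylase, rose by 2.71, the glycolytic regulator Pfkfb3 by 1.80, Ndrg1 by 1.57 and the lactate exporter Slc16a3 by 1.39. Vegfa, another hypoxia target that ATF4 also raises, went from 46.9–127 to 35.7–41.9 (-1.26, adjusted p = 4.72e-04), and Ldha did not pass (-0.09, adjusted p = 0.388). Of 34 tested genes of NRF2 and glutathione 13 rose and 12 fell, with a median of 0.12, beside 30.9% higher and 40.7% lower among all genes. Gpx3, a secreted glutathione peroxidase, was at 0.0910 to 0.206 in vitro and 98.4, 26.5, 51.9, 168 and 42.8 in vivo (5.79 ± 0.40 SE, adjusted p = 3.79e-07). Sod3, a secreted superoxide dismutase, rose by 4.11 with library 4 highest, and Gsta3 and Gpx2, of glutathione use, by 3.39 and 3.08 with library 4 lowest. Txnrd1, a core NRF2 target, went from 107–114 to 48.8–57.1 (-1.08, adjusted p = 5.05e-08).

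Lysosomal genes rose in 35 of 41, with a median of 0.80, and Mcoln1 alone fell (-0.18). Hexa, a hexosaminidase subunit, was at 3.03, 4.16, 3.56, 3.71 and 4.15 FPKM in vitro and 40.5, 44.5, 35.1, 56.4 and 48.1 in vivo (3.27 ± 0.12 SE, adjusted p = 8.46e-09). Ctsd, cathepsin D, was at 339, 295, 278, 267 and 292 in vitro and 488, 557, 561, 575 and 545 in vivo (0.89 ± 0.07 SE, adjusted p = 9.12e-07). Both were above culture in all 5 libraries, and the highest in vivo value was 1.61-fold (Hexa) and 1.18-fold (Ctsd) the lowest. Ctsh and Ctsk, cathepsins H and K, rose by 2.67 and 2.09. Ctss and Laptm5, lysosomal genes of macrophages, were at 0.01 to 0.0420 and 0.0227 to 0.0333 FPKM in vitro and at 9.87 to 23.7 and 3.41 to 6.61 in vivo, and Tyrobp, a myeloid marker, was at 5.54 to 13 in vivo beside them. Of 31 tested genes of the endoplasmic reticulum and the unfolded protein response 13 rose and 2 fell (Atf6 and Ern1), with a median of 0.20. Xbp1, a transcription factor of secretory cells, was at 57.8, 58.5, 75.7, 64.4 and 65.3 in vitro and 307, 304, 287, 108 and 267 in vivo (1.88 ± 0.26 SE, adjusted p = 5.70e-05). Dnajb9, a co-chaperone, rose by 1.82, Sdf2l1 by 0.92 and Crebl2, also in the list, by 0.90, while Hspa5, the main chaperone of that compartment, did not pass (-0.11, adjusted p = 0.556).

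The programs differed in how they varied with the markers of host cells among the 5 in vivo libraries. With 5 libraries no correlation was computed, and counts over list members are given beside the shares over all genes of 40.4% highest and 34.0% lowest in library 4. Library 4 was picked for its Col3a1, which is itself among the fibroblast markers. In it 15 of 16 tested fibroblast markers were highest, with a median 1.78 above the median of the other 4 libraries. So were 34 of 45 matrix genes, with a median deviation of 0.97, and 18 of 24 glucocorticoid and clock genes, with 0.74. Antimicrobial, airway secretory and epithelial genes were more often lowest there. Library 4 was the lowest for 14 of 22 antimicrobial genes (median deviation -1.09), for 13 of 19 airway secretory genes (-1.06) and for 18 of 29 keratin, cadherin and epithelial regulator genes (-1.08). The secreted antiproteases were split, with 6 of 15 highest and 7 lowest in library 4 (0.08). Relative to the median of the other 4 libraries, library 4 was 9.22-fold lower for Tff2, 6.72-fold for Reg3b, 5.55-fold for Reg3g, 4.28-fold for Fgb, 3.54-fold for Trf and 3.22-fold for Epcam. It was 1.97-fold lower for Krt8, 1.48-fold for Krt18 and 1.60-fold for Alk, genes the line makes in culture. Library 4 was also the lowest for 26 of 44 ATF4 genes, 30 of 50 MYC genes and 24 of 54 replication genes, but by smaller amounts, with median deviations of -0.20, -0.16 and -0.06. Other markers of host cells went both ways in library 4. Of 6 smooth muscle and pericyte markers 4 were highest there (median deviation 0.98). Alveolar type 2 markers had a median deviation of 0.25, with 0 of 6 highest. In contrast 7 of 11 macrophage markers (median deviation -0.64), 6 of 10 endothelial markers (-0.49) and 4 of 8 club and goblet markers (-0.48) were lowest there. The part of host cells in the lower mucosal and epithelial values of that library was not tested.

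Without library 4 every tested antimicrobial (23) and airway secretory (22) gene rose, and the ATF4 count stayed at 38 of 44 lower. That fit asked for fewer libraries past the filter, so more genes were tested. Antimicrobial genes tested were 23 in place of 22, airway secretory genes 22 in place of 19 and antiproteases 19 in place of 15. Genes low in culture could enter through their in vivo level alone, so these higher counts partly follow from the filter. Matrix genes rose in 29 of 45 and fell in 9 in place of 6, and epithelial genes rose in 16 of 29 and fell in 9 in place of 7. Antiproteases rose in 16 of 19 in place of 11 of 15, and glycolysis and hypoxia genes in 20 of 31 in place of 16. The genes with the widest gap between library 4 and the next in vivo library were Fmod, Dpt, Sgk1, Galnt15, Gm15867, Arrdc2, Edil3, Fgfr1, Lum and Cst3. Lum, lumican of collagen matrix, was at 58.3, 111, 9.82, 446 and 55.1 FPKM, and Fmod, fibromodulin, at 58.0, 69.7, 6.95, 387 and 35.8. Cst3, the secreted cysteine protease inhibitor, was at 206, 195, 151, 164 and 201 in vitro and 394, 318, 299, 1532 and 352 in vivo (1.33 ± 0.39 SE, adjusted p = 0.00995). Fgfr1, a growth factor receptor, was at 14.6, 16.6, 5.61, 72.7 and 12.8 in vivo, beside 4.15 to 5.43 in vitro.

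**Figure D3:**
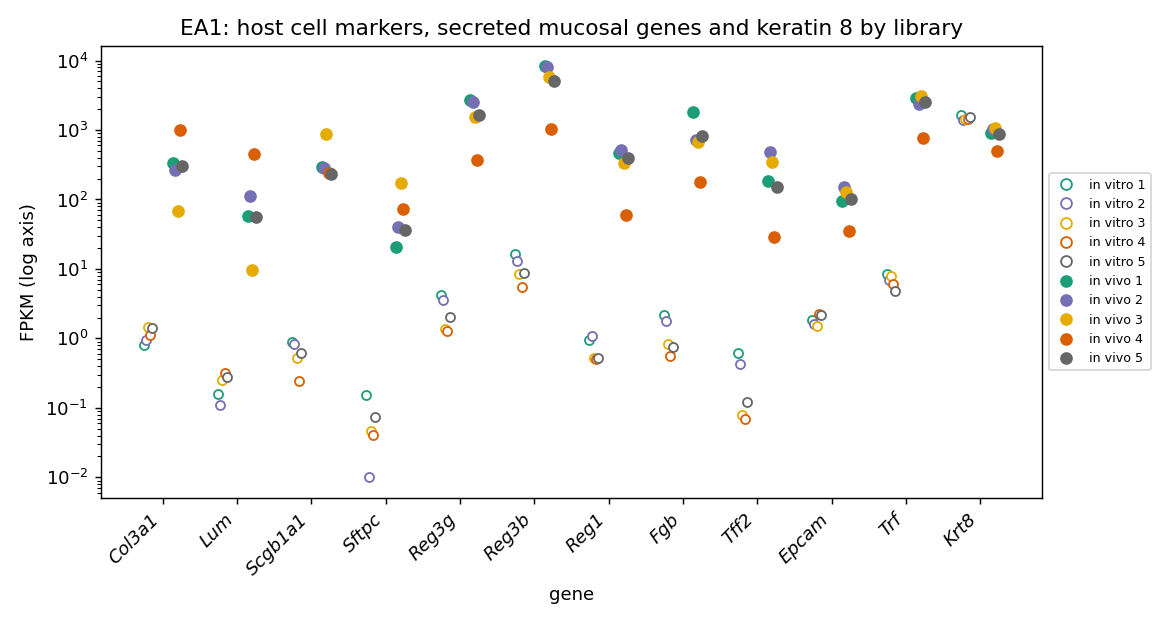
FPKM on a log axis of host cell markers (Col3a1, Lum, Scgb1a1, Sftpc), secreted or epithelial genes and Krt8 in the 5 EA1 in vitro libraries (open circles) and 5 in vivo libraries (filled circles). In vivo library 4 is highest for Col3a1 and Lum and lowest for Reg3g, Reg3b, Reg1, Fgb, Tff2, Epcam, Trf and Krt8, and library 3 is highest for Scgb1a1 and Sftpc.

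Library 3, with the most Scgb1a1, showed a different set. It was highest for 6 of 8 tested club and goblet markers, among them Scgb1a1, by which it was picked. It was also highest for all 6 tested alveolar type 2 markers and 8 of 10 endothelial markers, beside 16.9% of all genes. Of 16 fibroblast markers 15 were lowest there, beside 26.3% of all genes. The genes with the widest gap above the next in vivo library were Scgb1a1, Sftpc, Sftpb, Snora65, Scgb3a2, Cyp2f2, Ager, Cbr2, Hopx and Tppp3. Cyp2f2, a cytochrome of club cells, was at 5.98, 6.39, 20.8, 4.89 and 5.20 FPKM, Ager, of alveolar type 1 cells, at 1.34, 4.00, 19.4, 4.01 and 6.51, and Cldn5, the endothelial claudin, at 6.82, 6.31, 19.6, 6.11 and 12.3. Snora65 encodes a short nucleolar RNA for which FPKM is unstable, at 0.01, 0.01, 44.2, 0.01 and 0.01. Reg3b and Epcam in library 3 were within the range of libraries 1, 2 and 5, at 5802 and 126 FPKM, and Reg3g and Fgb were below it, at 1514 and 680. The airway secretory list had a median deviation of 0.60 in library 3, and the glycolysis and hypoxia list was highest there for 17 of 31 members (median deviation 0.18). Of 24 glucocorticoid and clock genes 15 were lowest there, beside the 26.3% of all genes.

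The genes with the narrowest and the widest range across the in vivo libraries were picked out among calls with a difference over 3, so their spreads are given as a description. At the narrow end Gas6, a ligand of the TAM receptors, was at 1.09 to 1.49 FPKM in vitro and 54.6, 75.7, 60.8, 51.9 and 64.1 in vivo (4.74 ± 0.10 SE, adjusted p = 5.31e-10), a 1.46-fold spread between the highest and lowest in vivo library. Il18r1, a receptor for interleukin 18, was at 0.0163 to 0.112 in vitro and 15.2, 16.5, 12.6, 16.3 and 16.4 in vivo (3.94 ± 0.08 SE, adjusted p = 5.31e-10), a 1.31-fold spread. Pla2g7, a phospholipase that degrades platelet-activating factor, was at 3.26, 3.02, 3.38, 3.26 and 3.67 in vitro and 65.2, 59.2, 54.7, 67.2 and 79.7 in vivo (3.93 ± 0.09 SE, adjusted p = 7.15e-10), a 1.46-fold spread. Il13ra1, a receptor chain for interleukins 4 and 13, had a spread of 1.33-fold, Il33 of 1.48-fold and Flt1, a VEGF receptor, of 1.45-fold, and Crip1, Cyp2d22, Snhg18 and Emb completed the 10 narrowest. At the wide end stood Postn (50.2-fold), Fmod (55.6-fold), Lum (45.4-fold) and Mmp2 (43.3-fold), all genes of fibroblasts, with Col1a2, Ogn, Col6a3, Comp, Brinp3 and Chil4. Chil4 shares reads with the near-identical Chil3 and was highest in library 3, at 107, 31.7, 149, 5.63 and 44.1 FPKM. By comparison, the Reg3g spread was 7.14-fold.

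**Figure D4:**
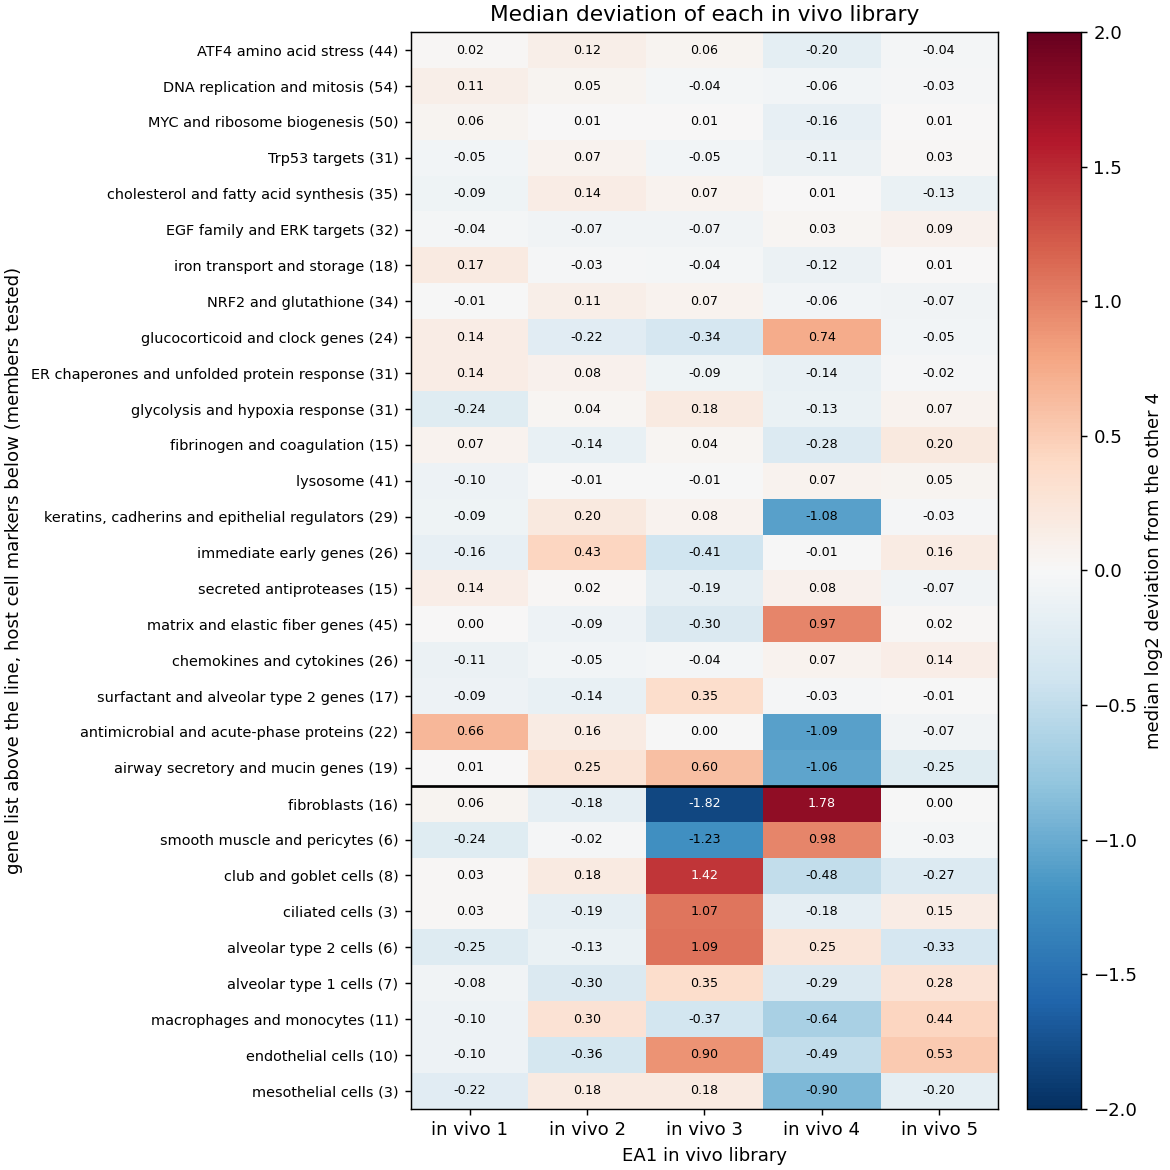
Median over list members of the log2(FPKM + 1) value in each EA1 in vivo library minus the median of the other 4, for gene lists (above the line) and for host cell markers with at least 3 tested (below it). Fibroblast markers stand at 1.78 in library 4 and -1.82 in library 3, while antimicrobial, airway secretory and epithelial lists stand at -1.09, -1.06 and -1.08 in library 4.

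To see which programs were particular to EA1, the change in EA1 was tested against the change in EA2 over 11930 genes. The EA1 change was above that of EA2 for 3230 genes (27.1%) and below it for 4327 (36.3%), with a median difference of -0.18, so above were 42.7% of calls, and 55.1% after median-of-ratios scaling. EA2 in vitro libraries 1 and 3 stood apart, with FPKM sums of 733184 and 717905 beside 475434 to 569388 in the other 16 libraries, which include EA2 in vitro library 2. With EA2 in vitro library 2 alone the counts were 2243 and 2515, with the spread of that single library taken to be that of the other groups, and the lists below are given with that alternative. Markers of host cells were also lower in EA2 in vivo, with Col3a1 at 29.4, 1.05, 6.34, 24.4 and 0.548 FPKM and Scgb1a1 at 28.2, 10.3, 34.6, 152 and 18.7, and their part in the differences between lines was not tested. The line, its p53 status and the number of cells injected cannot be told apart.

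Many transcripts of secreted mucosal proteins had a larger change in EA1, and most of them entered the test only through their in vivo level: 16 of the 19 airway secretory and 18 of the 22 antimicrobial genes tested in EA1 were under 1 FPKM in EA1 culture. Airway secretory genes changed more in EA1 for 15 of 20 tested and less for none (11 and 0 with EA2 in vitro library 2 alone), with medians of 3.74 in EA1 and 0.91 in EA2. Antimicrobial genes were above in 12 of 23 and below in 1 (8 and 0). Reg3g was at 2.79, 0.211, 1.82, 0.564 and 0 FPKM in the 5 EA2 in vivo libraries, and its change differed by 7.91 ± 0.69 SE, adjusted p = 2.12e-07. Reg3b, Tff2 and Tff1 had changes of 0.00, 0.17 and 0.00 in EA2, with EA1 minus EA2 differences of 8.73 for Reg3b, 6.91 for Tff2 and 6.45 for Tff1. Lbp had a change of 6.82 in EA1 and 6.14 in EA2, and the difference did not pass (0.68 ± 0.51 SE, adjusted p = 0.248). Fgb had a change of 3.42 in EA2 and a larger one in EA1 (4.87 ± 1.29 SE, adjusted p = 0.00326), whereas the transferrin change did not pass the test of difference (1.87 ± 0.93 SE, adjusted p = 0.0878). Epcam (4.34 ± 0.50 SE, adjusted p = 2.61e-06), Erbb3 (3.19 ± 0.49 SE, adjusted p = 3.73e-05) and Gpx3 (5.16 ± 0.60 SE, adjusted p = 2.73e-06) differed too, with changes of 0.67, 0.76 and 0.62 in EA2. Chemokines were above in 17 of 32 and below in 1 (16 and 2 with library 2 alone). Il33 and Cxcl1 rose in EA1 and had changes of -2.12 and -1.69 in EA2, differences of 5.75 ± 0.68 SE, adjusted p = 3.34e-06 and 5.13 ± 0.50 SE, adjusted p = 5.05e-07.

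Growth and amino acid genes had an EA1 change below that of EA2 more often than above it, as did all genes (36.3% below and 27.1% above). With EA2 in vitro library 2 alone, ATF4 genes were not below EA2 more often than all genes. Of 54 replication genes 29 were below and 5 above (26 and 1 with library 2 alone, 30 and 13 without it), with medians of -1.53 in EA1 and -0.57 in EA2. Of 50 MYC genes 30 were below and 8 above (17 and 5, 33 and 9). Of 45 ATF4 genes 23 were below and 2 above, but 6 and 1 with library 2 alone and 27 and 3 without it. After median-of-ratios scaling 8 replication genes were above. Mki67 had a change of -1.88 in EA1 and 0.75 in EA2 (difference -2.63 ± 0.36 SE, adjusted p = 1.27e-05), and Myc of -1.31 and 0.35 (difference -1.66 ± 0.44 SE, adjusted p = 0.00324). Slc7a11 differed by -2.57 ± 0.47 SE, adjusted p = 1.64e-04, while for Cth, at -4.48 and -4.04, no difference passed (-0.44 ± 0.55 SE, adjusted p = 0.499). Scd2 (-2.36 ± 0.33 SE, adjusted p = 1.57e-05) and Mt2 (-3.31 ± 0.77 SE, adjusted p = 0.0013) were below, Mt2 with a change of 6.07 in EA2. With library 2 alone the Mt2 difference was -1.19 and did not pass (adjusted p = 0.117). Matrix genes did not separate the lines as a list, with 12 above and 15 below of 46, although Eln (6.34 ± 0.47 SE, adjusted p = 3.83e-08) and Fn1 (-2.2 ± 0.31 SE, adjusted p = 1.65e-05) did, in opposite directions. For Mki67, Myc, Slc7a11, Eln and Fn1 the differences with library 2 alone are not given here. Of the remaining genes with the largest change in their lists, Mgp (1.72), Itih2 (2.67), Btg2 (2.45), Car9 (2.42), Xbp1 (1.48), Sftpc (3.76) and Cxcl17 (4.19) were above, Nop56 (-0.65) and Mybl2 (-2.08) below, and Fos (0.47 ± 0.91 SE, adjusted p = 0.663) and Ctss (1.03 ± 0.77 SE, adjusted p = 0.25) did not pass. With a pseudocount of 0.1 the Mgp difference turned to -0.52 (adjusted p = 0.407) and the Fgb difference, at 3.21, did not pass (adjusted p = 0.139). With library 2 alone the Car9 (2.04, adjusted p = 0.0759), Mgp (1.6, adjusted p = 0.0749) and Nop56 (-0.46, adjusted p = 0.241) differences did not pass either.

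**Figure D5:**
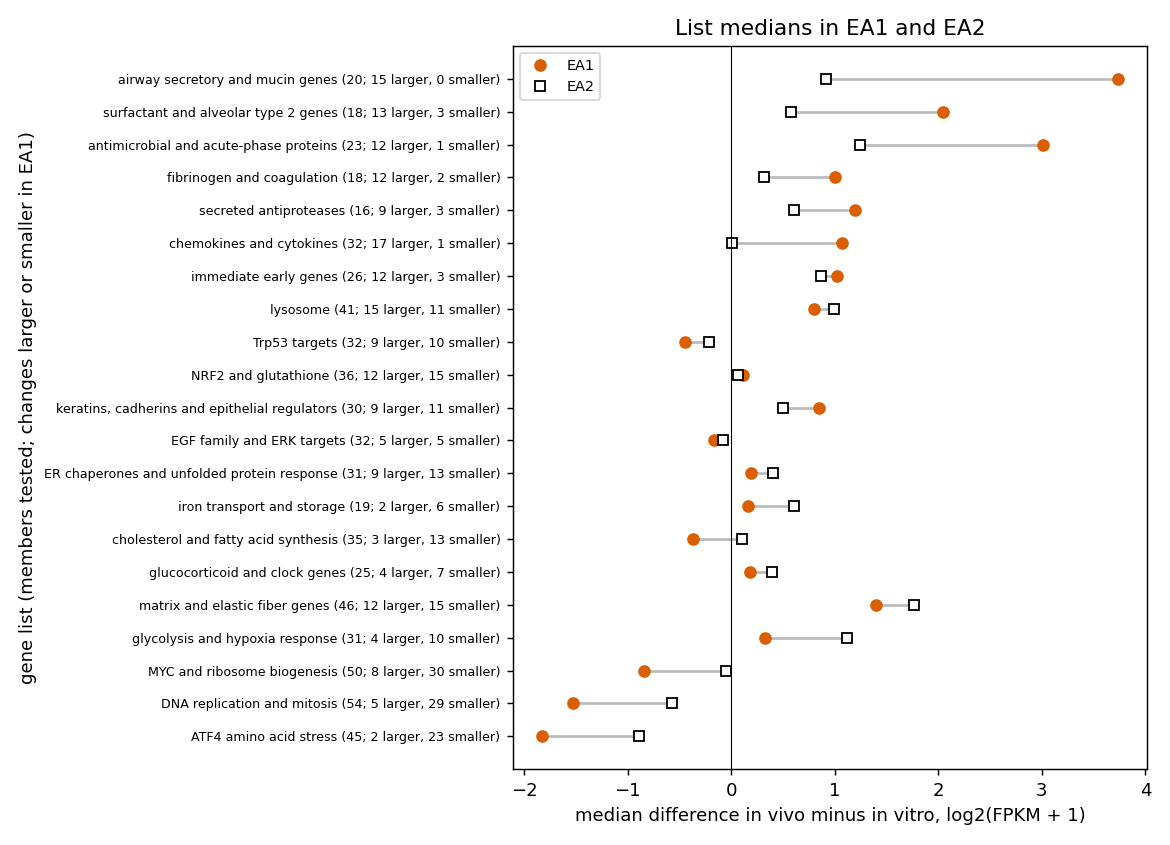
Median difference between in vivo and in vitro on the log2(FPKM + 1) scale for each gene list in EA1 (circles) and EA2 (squares), with the number of members whose EA1 change was above (larger) or below (smaller) the EA2 change in the label. The airway secretory list lies at 3.74 in EA1 and 0.91 in EA2, and the ATF4 list at -1.83 and -0.89.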

How the data were processed

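Poly(A) RNA was sequenced with a stranded kit from 10 EA1 and 8 EA2 libraries, from sorted cells in vivo and from pelleted cells in vitro. The deposited FPKM values were made by the authors by trimming, STAR alignment to mm10 and Cufflinks, version 2.0.2 in the submitters' processing notes. FPKM divides by transcript length and mapped fragments, so that a few abundant genes lower all others in a library. No deposited column held a comparison by the authors, and 0 other value columns were found. The EA1 table had 24341 entries, of which 6 held a status word for a failed estimate (among them Spp1, Slc7a1 and Dmbt1) and were left out. The EA2 table had 24347, of which 27 with date-like names were left out, and 24269 symbols were in both.

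Groups came from the labels. Log2(FPKM + 1) values were tested with limma 3.58.1 in R 4.3.3 (empirical Bayes with a mean trend, Benjamini-Hochberg threshold 0.05, two-sided), EA1 in vivo against in vitro, for genes at 1 FPKM or more in at least 5 EA1 libraries. The change in EA1 was tested against that in EA2 as an interaction over all 18 libraries, for genes past that filter in EA1 or in 3 EA2 libraries. Both fits were tested on simulated data. The 21 gene lists, 12 host marker lists and all members were chosen with earlier results of these data known. Genes named are the 10 largest rises and falls without overlap between groups, up to 5 per list by size plus members that define it by role, the 10 with the widest gap in the in vivo library highest for Col3a1 or Scgb1a1 (mean of 5 FPKM or more in vivo), the 10 narrowest and 10 widest in vivo spreads among changes over 3, and the largest change per list against EA2; a gene this rule also selected is not reported here. The remaining keratins, EGF ligands, repressors of epithelial genes and the iron genes that fell were added after their values were seen. Alternatives were robust estimation, a replicate block, each library left out, EA2 in vitro library 2 alone, scaling by median of ratios or by quantiles, a pseudocount of 0.1, and filtering at 5 FPKM or not at all. With an EA1 library left out, the filter in EA1 asked for 1 library fewer. The replicate numbers were not taken as pairs. Promoter sequences are from RefSeq (GRCm38.p6). Symbols with near-identical copies (Serpina1b, Chil4, Mt1 and Mt2) are uncertain.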

Additional observations from a re-analysis of the deposited data

Results flagged for a closer look

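Of 280 groups of 5 libraries examined for the genes named by size of change, gap or spread, 43 had 1 library far from the other 4. Chance gives about 5 percent of groups, but 39 of the genes were named as host markers or for their gap or spread between in vivo libraries, which favors such groups or goes against them. Among the 202 groups of the other genes there were 31, and these genes are not independent of each other. Of all 43, genes named for their gap or spread included, the library was in vivo 4 in 21 and in vitro 1 in 10. The genes low in in vivo library 4 were Reg3g (372.8 FPKM), Reg3b (1040), Trf (771.3), Reg1 (60.09), F5 (7.859), Serpina1b (4.158), Spint1 (5.232), Tfr2 (9.53), Nop56 (24.62), Erbb3 (8.953), Gsta3 (3.626), Ctsh (26.24), Xbp1 (108.2), Muc1 (34.83), Cldn4 (8.212), Elf3 (25.56) and Cxcl17 (21.67). Those high in it were Fads1 (47.7), Dpt (20.88), Sgk1 (229.1) and Cst3 (1532).

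In vitro library 1 was low for Chac1 (19.18 FPKM), Mthfd2 (66.97), Slc7a11 (5.957), Trib3 (18.19), Asns (101.7), Sesn2 (11.47), Ciart (3.946) and Snai2 (15.06), was at the floor of 0.01 for Snora65, and was high for Cyp2f2 (0.04138). In vivo library 3 was high for Scgb1a1 (887.1), Snora65 (44.22), Cyp2f2 (20.8) and Tppp3 (9.898). Other libraries accounted for Mybl2 (15.83) and Mcm10 (8.956), both low in in vitro library 3, for Mcm10 (2.658, high in in vivo library 2), Ndrg1 (110.9, low in in vivo library 1) and Snora70 (11.17, the only in vivo library above the floor). Scgb3a2 (0.1604, in vitro library 4), Hopx (0.03367) and Cyp2d22 (0.04637, both in vitro library 5) were all near the floor.

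The change in EA1 differed from that in EA2, by the limma interaction test at an adjusted p under 0.05, for 16 of the 20 genes compared. EA1 minus EA2 was above 0 for Reg3g (7.905), Gpx3 (5.164), Fgb (4.868), Epcam (4.342), Cxcl17 (4.193), Sftpc (3.755), Erbb3 (3.189), Itih2 (2.67), Btg2 (2.448), Car9 (2.419), Mgp (1.716) and Xbp1 (1.477). It was below 0 for Mt2 (-3.311), Scd2 (-2.362), Mybl2 (-2.079) and Nop56 (-0.6516).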

How the results depend on the processing

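With no filter 5618 genes were higher in vivo in place of 3459, since genes low in every library were then tested, and with EA2 in vitro library 2 alone 2515 genes in place of 4327 had an EA1 change below that of EA2. Median-of-ratios scaling moved the median of all genes by 0.14 and no list median changed sign under either scaling (0 of 21). The other alternatives kept these totals within 1.5 times: leaving out 1 library gave 3266 to 3823 genes higher and 4295 to 4975 lower, and 2870 to 3436 above and 3618 to 4999 below EA2. Of the 140 genes named by size of change, gap or spread, 3 changed their side of the threshold or direction in any alternative. These were Arrdc2, Snora65 and Sgk1, the last at -0.27 without in vivo library 4 and at -0.27 to 0.50 over all libraries left out in turn. Genes named only for their role, or added after their values were seen, were not in this check. Against EA2 the difference turned to -0.52 for Mgp (pseudocount 0.1), -0.20 for Trf (EA2 in vitro library 2 alone) and -0.17 for Fos (without EA2 in vitro library 2, with a range of -0.17 to 1.09 over libraries left out). The Trf difference passed without in vivo library 4 (2.23) or EA2 in vitro library 2 (2.90), and the Cth difference without in vitro library 1 (-0.87). The Nop56 difference did not pass after median-of-ratios scaling (-0.32) or without EA2 in vitro library 1 (-0.60) or 3 (-0.60). The cause was not tested. Of the list counts under an alternative, 118 moved by more than 1.5 times and 1688 did not.

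The replicate numbers share only a number: the correlations of deviations between same-numbered in vivo and in vitro libraries were 0.0539, -0.0123, 0.00586, -0.0606 and 0.0767. With a replicate block 3342 genes were higher and 4445 lower, and 3064 were above and 4184 below EA2. No read counts were used here, so what sequencing depth limits cannot be given, and differences between genes near 1 FPKM are the least certain.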
